A study of Neocallimastix californiae and Anaeromyces robustus with 43 samples.

Results

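The transcript response of Anaeromyces robustus to whole switchgrass was measured against growth on glucose. The members are the 6 libraries labelled S4 Switchgrass and S4 Glucose, 3 of each, out of 20 libraries of this fungus and 43 in the series. They were chosen by their labels, and no measured value is part of the rule. The remaining 23 libraries come from Neocallimastix californiae and were not used here.

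Anaeromyces robustus is an anaerobic fungus of the herbivore gut, and S4 is the short name of its isolate in the labels. Such fungi attach to plant fragments, grow into them and secrete enzymes that cut cellulose, hemicellulose and pectin, many of them held together in large complexes called cellulosomes. In many other fungi, genes for such enzymes are read weakly while glucose is plentiful and strongly when only a plant polymer is on offer. Switchgrass is a prairie grass whose cell walls hold cellulose, hemicellulose and lignin, whereas glucose is taken up as it is.

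Both groups were the same unmodified organism in the same medium, Medium C, in cultures of about 10 ml at 39 °C, and differed in the energy substrate named in the labels. RNA was taken from the whole organism during exponential growth, taken as reached once the gas pressure was 5 psi or more. A pressure threshold sets a common point of gas production, not a common age or amount of fungus. Messenger RNA libraries were made with a strand-keeping Illumina kit. The comparison groups used below had the same medium and harvest, with reed canary grass (3 libraries), corn stover (2), cellobiose (3), Avicel (3) or maltose (3) as substrate. Avicel is purified microcrystalline cellulose, cellobiose is its repeating disaccharide, and maltose is the repeating disaccharide of starch.

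The switchgrass libraries held 14164709, 13966438 and 31742828 expected counts, and the glucose libraries held 15397134, 11789612 and 14525337. Of 17127 transcripts from 16038 loci, 10316 had enough counts to be tested. The deposited files carry locus numbers only and pair them with no gene name, product or sequence. Cellulases, transporters and other classes could therefore not be counted, the label of the organism could not be checked against marker genes, and only a few transcripts are named by their identifiers. In the whole set of 20 libraries, maltose replicate 3 and Avicel replicate 1 stood apart, with TMM scaling factors of 0.18 and 0.27. Maltose replicate 3 was also shallow, with 1946186 expected counts and 2951 transcripts with a count.

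The 3 switchgrass libraries were close to each other, and the 3 glucose libraries less so. Across tested transcripts, Spearman's rank correlation was 0.980 to 0.984 between switchgrass libraries and 0.91 to 0.95 between glucose libraries. Over the 3352 transcripts with a mean of at least 10 CPM (the usual per-library rate of counts, here after TMM scaling), the median SD between replicates was 0.18 on the log2 scale on switchgrass and 0.40 on glucose. Switchgrass had the smallest such spread of the 7 substrates. The other grasses stood at 0.22 for corn stover (2 libraries) and 0.24 for reed canary grass (3 libraries). An SD from 2 libraries tends to come out smaller than one from 3, so no order is read between these other grasses.

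Glucose replicate 3 lay nearest to the switchgrass libraries. Its rank correlation with them was 0.88, against 0.78 to 0.79 for glucose replicate 1 and 0.79 to 0.80 for glucose replicate 2. These are correlations across transcripts, which share libraries and depth, and they are given as a description.

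Growth on switchgrass changed the level of many transcripts. By edgeR's quasi-likelihood test at an adjusted p under 0.05, 2790 transcripts were higher on switchgrass, which is 27.0% of those tested, and 1545 were lower, which is 15%. In all, 42.0% were called, and 5072 transcripts passed an unadjusted p under 0.05. The increases were larger than the decreases. At least 4-fold changes numbered 1995 upward and 545 downward, and at least 8-fold changes numbered 1061 and 214. The very largest changes did not follow this order, since changes of 128-fold or more numbered 8 upward and 11 downward.

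The balance of directions depended on how the libraries were put on 1 scale. TMM gave the switchgrass libraries factors of 1.95, 1.97 and 1.68 and the glucose libraries factors of 1.05, 0.88 and 0.78. With library size alone, the median log2 difference over all transcripts moved upward by 1.04 and the calls became 4118 higher and 298 lower. With the size factors of DESeq2 in the same model, the median moved upward by 0.59 and the calls became 4126 higher and 851 lower. All 2790 higher calls were also made under both other scalings, but both moved the differences upward, which makes a higher call easy to keep. Of the 1545 lower calls, 286 were made under all 3 scalings, and no transcript was called in opposite directions. Directions below are on the TMM scale unless another is named.

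Single libraries moved the number of calls without turning any. The total ran from 3390 without glucose replicate 1 to 4140 without glucose replicate 2 when any of the 6 libraries was left out. In 2970 transcripts the call was made in each of those 6 fits, and none changed its sign. Separation of the groups in CPM after TMM scaling was common. The 3 switchgrass values all lay above or all below the 3 glucose values in 60.1% of tested transcripts. This separation rests on the same scaling as the calls. Of the higher calls 2770 were separated in this way, and of the lower calls 1456.

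**Figure D1:**
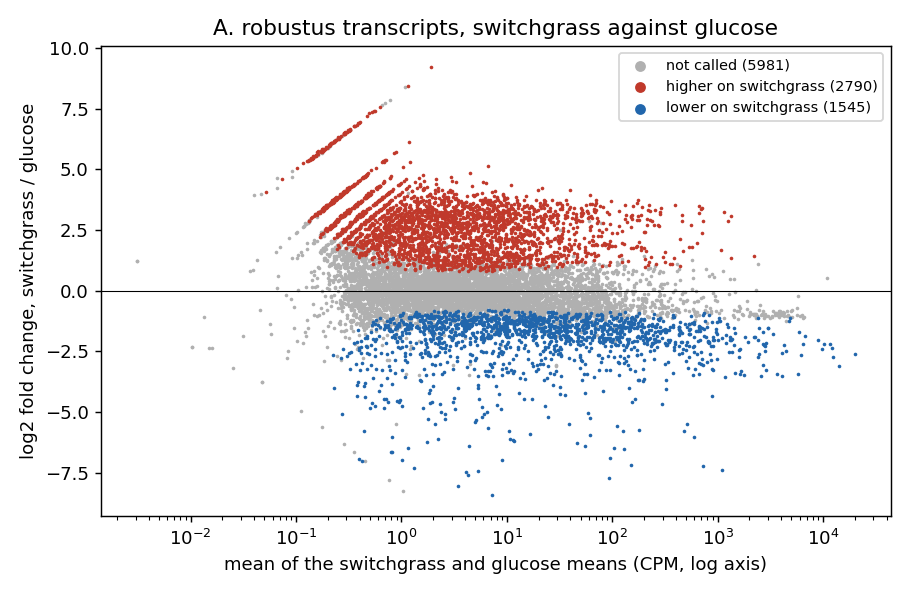
Log2 fold change of switchgrass over glucose (vertical axis) against the mean of the 2 group means in CPM (horizontal axis, log scale), 1 point per tested transcript. The 2790 higher calls (red) lie mostly at low and middle levels, and the 1545 lower calls (blue) reach up to the most abundant transcripts; the diagonal streaks at low levels are transcripts with no or few counts on glucose.

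Among the transcripts that rose to at least 10 CPM without overlap between the groups, the largest fold belonged to Locus383v1rpkm347.85; scarcer transcripts had larger fitted folds. It stood at 8.39, 13.0 and 17.5 CPM in the switchgrass libraries and at 0.0619, 0.0960 and 0.976 CPM in the glucose libraries. Every switchgrass value lay above every glucose value, and glucose replicate 3 was the highest of its group. The log2 fold change was 5.14 ± 0.68 (SE; edgeR adjusted p = 2.67e-05), and 7.30 without glucose replicate 3. It was not a transcript with its peak on grass: the mean was 186 ± 77.6 CPM (SD, n = 3) on cellobiose, against 16.4 ± 6.55 on Avicel, 10.4 ± 2.73 on reed canary grass and 7.19 ± 1.60 (n = 2) on corn stover. On the TMM scale, switchgrass did not differ from Avicel for this transcript beyond the spread (log2 difference -0.34 ± 0.52, edgeR adjusted p = 0.604). In TPM, a length-corrected unit, the transcript stood at 13.5 ± 3.90 on switchgrass and 4.56 ± 1.64 on Avicel, without overlap. Reed canary grass stood at 8.56 TPM and corn stover at 5.66 TPM, so the place of Avicel depended on the scale.

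The largest gain in level belonged to Locus274v1rpkm630.89. It stood at 2492, 2128 and 2494 CPM on switchgrass and at 78.2, 140 and 635 CPM on glucose. The groups did not overlap, and glucose replicate 3 again lay nearest to switchgrass. The log2 fold change was 3.06 ± 0.57 (edgeR adjusted p = 0.000284) and 4.44 without that library. The 3 grasses shared a high level of this transcript, with 3527 ± 566 CPM on reed canary grass and 4065 ± 2010 (n = 2) on corn stover. Cellobiose followed at 1344 ± 610 CPM, Avicel at 557 ± 124 and maltose at 224 ± 42.1. Its expected counts were not whole numbers, so some of its reads also fitted other transcripts.

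Among the transcripts that fell from at least 10 CPM without overlap, the largest fold belonged to Locus8350v1rpkm1.79. It stood at 0.0363, 0 and 0.0562 CPM on switchgrass and at 3.65, 38.2 and 1.77 CPM on glucose. The groups did not overlap, but glucose replicate 2 alone held most of the glucose signal. The log2 fold change was -8.41 ± 1.41 (edgeR adjusted p = 0.000249) and -6.03 without that library. The transcript was uneven on maltose too, at 3.77, 26.3 and 0 CPM.

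The largest loss in level belonged to Locus13v1rpkm12377.85. It was the most abundant transcript in each glucose library, at 30843, 33370 and 38607 CPM, and the second in each switchgrass library, at 5030, 4994 and 6608 CPM. Its rank therefore hardly moved while its level fell by 2.63 ± 0.34 on the log2 scale (edgeR adjusted p = 2.28e-05). Under library size alone the fall was still past the threshold, at -1.58. On the TPM scale it went from 17220 ± 1083 TPM (a length-corrected unit; SD, n = 3) to 6406 ± 482 TPM. After TMM scaling, the level on Avicel, 37422 ± 10363 CPM, was close to that on glucose. In TPM, Avicel lay under glucose at 12066 ± 5321, and cellobiose stood at 13213 ± 978. The levels on reed canary grass and corn stover, 8109 ± 2117 and 6432 ± 754 CPM, were close to that on switchgrass. They stayed close in TPM, at 7093 ± 651 and 5596.5 ± 8.41 (n = 2 for corn stover). The 4 named transcripts kept their direction and their call in all 17 alternative fits.

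**Figure D2:**
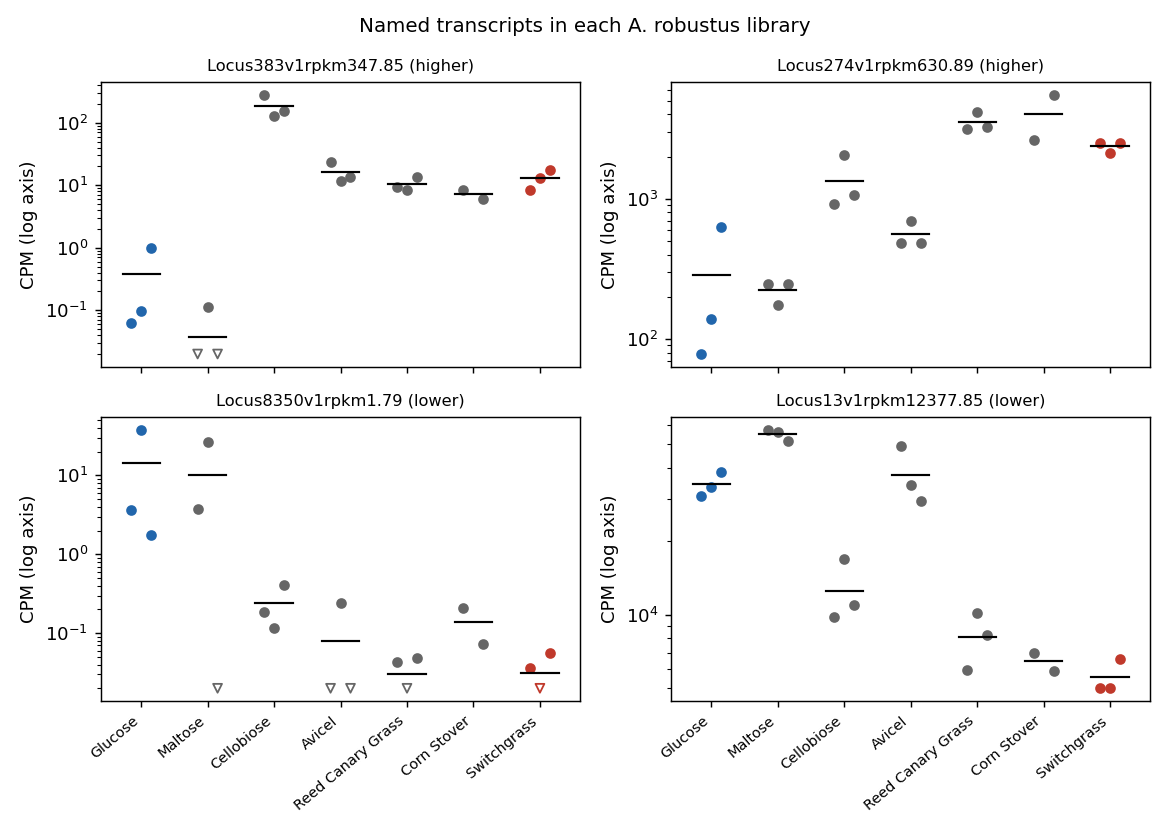
CPM after TMM scaling (vertical axes, log scale) of the 4 named transcripts in each library of A. robustus, grouped by substrate; bars are group means and open triangles mark a value of 0. Switchgrass (red) and glucose (blue) do not overlap in any panel, and Locus383v1rpkm347.85 is highest on cellobiose, at 186 CPM.

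Among tested transcripts, those that rose were mostly scarce, and those that fell included the most abundant ones. Of the 2714 transcripts under 1 CPM on average over the 20 libraries, 967 rose and 152 fell. Between 1 and 10 CPM, 1212 of 4250 rose and 512 fell. Between 10 and 100 CPM the directions were balanced, with 501 of 2409 higher and 491 lower. Between 100 and 1000 CPM, 102 of 744 rose and 306 fell, and from 1000 CPM upward 8 of 199 rose and 84 fell. The median log2 difference declined over these classes from 0.88 through 0.20, -0.17 and -0.87 to -1.07, while the median over all tested transcripts was 0.15. With these classes held fixed, another scaling shifts all 5 medians together, so their order stays but the sign of a single class can turn. The classes themselves were cut by CPM after TMM scaling. Classes cut on another scale were not tried, so which transcripts fall in each class rests on TMM. The low-count filter, applied before scaling, asks for enough counts in only a few libraries. A transcript under 1 CPM on average could therefore be kept through the substrate where it was high. How much this adds to the split in the lowest class was not tested.

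The 10 most abundant transcripts on glucose were all lower on switchgrass under all 3 scalings. They were chosen by their glucose level, which favours a fall. The 10 most abundant on switchgrass, chosen the opposite way, included 3 transcripts that fell and none that rose. Those 10 glucose transcripts held 17.5, 16.2 and 17.0% of all counts in the glucose libraries and 6.06, 5.87 and 6.28% in the switchgrass libraries. Of the 100 most abundant on switchgrass, 9 rose and 21 fell, a smaller share of calls than the 42.0% over all tested transcripts, and 78 of these 100 were also among the 100 most abundant on glucose.

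The counts on switchgrass were spread over more transcripts. In each library the 100 most abundant transcripts of that library held 46.2, 46.5 and 47.4% of the counts on switchgrass and 55.8, 59.6 and 59.2% on glucose. The groups did not overlap, and the difference of the means was -11.5 percentage points (46.7 ± 0.617 against 58.2 ± 2.08%, SD, n = 3 each). The exact two-sided permutation test gave p = 0.1, the smallest value that 3 against 3 libraries can give. Measured by TPM the difference was -5.84 points, with 56.9% on switchgrass and 62.8% on glucose. The counts of 119, 117 and 112 transcripts made up 50% of a switchgrass library, against 79, 69 and 71 transcripts for a glucose library. These shares need no scaling between libraries.

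More transcripts were seen on switchgrass at equal depth. Thinned to 11789612 counts, the total of the shallowest of the 6 libraries, a switchgrass library was expected to show 13012 ± 261 transcripts with a count and a glucose library 10986 ± 387 (SD, n = 3 each; exact two-sided permutation p = 0.1, again the smallest possible). In glucose replicate 2, which had this depth, 10549 transcripts had a count.

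**Figure D3:**
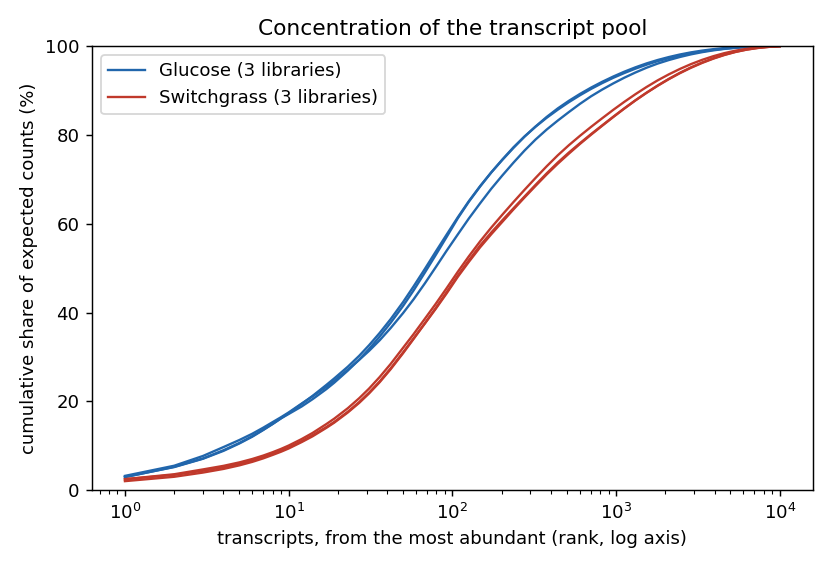
Cumulative share of expected counts (vertical axis, percent) over transcripts ranked from the most abundant (horizontal axis, log scale), 1 line per library. The 3 glucose lines (blue) run above the 3 switchgrass lines (red); at the 100 most abundant transcripts they reach 55.8 to 59.6% and 46.2 to 47.4%.

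Together the 2790 transcripts called higher took 1.16, 1.38 and 2.06% of the counts in the glucose libraries and 15.7, 15.6 and 14.96% in the switchgrass libraries. The 1545 called lower took 58.8, 51.1 and 55.1% on glucose and 25.5, 25.2 and 25.8% on switchgrass. These sums describe transcripts chosen by the same values, so they carry no test. On the TPM scale, the higher group went from 0.756 to 8.69% of all transcripts and the lower group from 46.3 to 20.9%. A typical transcript of the higher group remained modest: its median level was 0.257 TPM on glucose and 3.56 TPM on switchgrass. On switchgrass 731 of them reached 10 TPM, 137 reached 100 TPM and 12 reached 1000 TPM, compared with 117, 14 and 0 on glucose. The lower group had a median of 14.3 TPM on glucose and 8.38 TPM on switchgrass.

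The glucose libraries differed in how low the higher group stood. The median of its 2790 transcripts was 0.372 CPM in glucose replicate 1, 0.288 in replicate 2 and 1.06 in replicate 3, against 3.67, 3.85 and 3.61 CPM in the switchgrass libraries. Replicate 3 was highest for this group and also lay nearest to switchgrass by rank, but its median stayed well under those of all 3 switchgrass libraries. The lower group showed no such step, at 27.4, 22.3 and 27.9 CPM in the glucose libraries and 7.59, 7.52 and 7.47 CPM in the switchgrass libraries.

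Some transcripts went from no count to a clear one. In 48 transcripts no glucose library had a count while each switchgrass library had at least 10. Of these, 45 were called higher, beside 27.0% of all tested transcripts. The 48 were chosen by counts in the same libraries, so their calls carry no test. No transcript showed the opposite pattern. The 2 patterns were not equally easy to meet. A floor of 3 counts over the group was 0.0793 CPM on glucose and 0.0277 CPM on switchgrass, so an absence on switchgrass was the stricter demand. Switchgrass means of the 48 were low, from 0.372 to 3.85 CPM with a median of 0.580. Against a floor of 3 counts over the 3 glucose libraries, the most abundant of them was at least 48.6-fold higher on switchgrass, which covers counting error only. All 5 libraries of the other grasses had counts for 44 of the 48, and all 3 cellobiose libraries for 42. All 3 Avicel libraries had counts for only 4, and 38 had none in any maltose library. Detection differed in general too. Transcripts with a count numbered 12080 to 12775 in the other grass libraries and 11976 to 13180 on cellobiose. They numbered 9542 to 10749 on Avicel and 2951 to 10032 on maltose. The same shares over all tested transcripts were not computed, so these counts are a description of the 48.

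Each other substrate held the same sets of transcripts at a different level. The 2790 transcripts called higher on switchgrass took 14.97 ± 0.966% of the counts on reed canary grass (SD, n = 3) and 14.5 ± 2.52% on corn stover (n = 2), beside 15.4 ± 0.398% on switchgrass. They took 8.24 ± 0.635% on cellobiose, 4.18 ± 1.21% on Avicel and 0.717 ± 0.446% on maltose, beside 1.53 ± 0.469% on glucose. Libraries of cellobiose, of Avicel, and of glucose and maltose together did not overlap in this share, and the 3 grasses were not distinguished beyond their spread. Pure cellulose stood nearer to the glucose level than its soluble disaccharide did.

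The 1545 transcripts called lower took 26.5 to 28.8% in the reed canary grass libraries and 26.9% on corn stover, against 25.5 ± 0.318% on switchgrass. On cellobiose they took 39.8%, on Avicel 42.6 ± 8.12%, on maltose 46.6 ± 16.8% and on glucose 55.0 ± 3.85%. Avicel and maltose each had 1 library far under the other 2, the libraries that stand apart. For the higher group, the median log2 difference from glucose was taken on the log2(CPM + 0.1) scale. It was 2.20 on switchgrass, 2.12 on reed canary grass, 2.11 on corn stover and 1.38 on cellobiose. On Avicel it was -0.01 and on maltose -0.99, or -0.71 without maltose replicate 3. These differences share the glucose libraries, and no likeness is read from them.

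**Figure D4:**
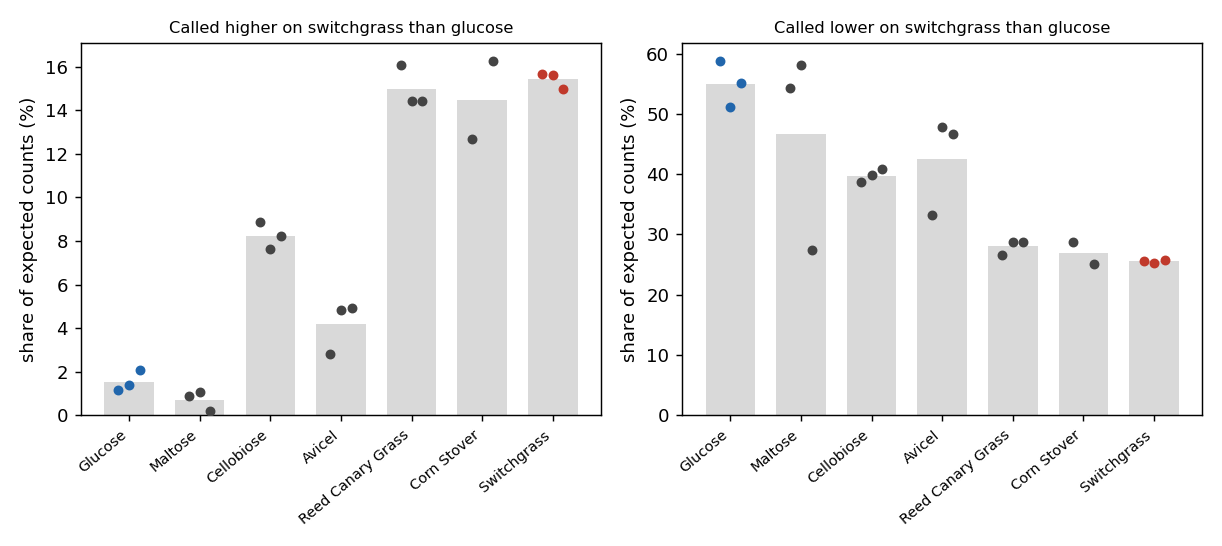
Share of all expected counts (vertical axes, percent) held by the transcripts called higher (left) and lower (right) on switchgrass than on glucose, by substrate; points are libraries and bars are means. The higher group holds 15.4% on switchgrass and 1.53% on glucose, with reed canary grass and corn stover at the switchgrass level and cellobiose between.

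The same transcripts were examined in a contrast that shares no library with switchgrass and glucose, reed canary grass against maltose. There 29.7% of all tested transcripts were called higher on the grass and 11.8% lower by edgeR's quasi-likelihood test. Of the 2790 transcripts higher on switchgrass than on glucose, 2417 were also higher on reed canary grass than on maltose (86.6%) and none was lower. These 2417 make up 78.8% of all transcripts called higher on reed canary grass. Of the 1545 lower ones, 994 were lower on reed canary grass (64.3%, or 81.3% of all lower calls there) and 1 was higher. Among the 5981 transcripts not called between switchgrass and glucose, 10.9% were higher and 3.81% lower. Both contrasts came from the same fit of 20 libraries and share its filter and its estimate of spread for each transcript. A transcript with a small estimated spread is more easily called in both, so the shared calls are not an independent test.

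The median log2 difference between reed canary grass and maltose was 3.78 in the higher group and -1.42 in the lower group, beside 0.48 over all tested transcripts. Leaving out maltose replicate 3 gave 2393 and 1221 shared calls, with backgrounds of 29.1 and 15.1%. Of the 286 transcripts lower on switchgrass under all 3 scalings, 271 were lower on reed canary grass too. The balance of this contrast also moved with scaling, from 3067 higher and 1222 lower by TMM to 5963 and 229 by library size alone and 4287 and 882 by the size factors of DESeq2.

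How far switchgrass was distinguished from the other 2 grasses depended on the libraries in the fit. Testing 1 grass against another asks directly whether their differences from glucose differ. Against reed canary grass edgeR called 0 transcripts (0.00%) with all 20 libraries in the fit and 349, 196 higher and 153 lower, with only the 6 libraries of the 2 groups. With all libraries an unadjusted p under 0.05 was reached by 751, the smallest adjusted p was 0.254, and DESeq2 called 11. Over transcripts of at least 10 CPM, the median absolute log2 difference was 0.36, against 1.02 between switchgrass and glucose. An estimate past 2-fold was found in 3.61% of them, against 51.1% for glucose.

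The absence of calls does not show that these transcripts are equal. The 95% interval of the difference from reed canary grass had a median half-width of 0.93 on the log2 scale and lay wholly within 2-fold for only 530 transcripts, or 15.8% of those of at least 10 CPM. With maltose replicate 3 and Avicel replicate 1 left out, the count stayed at 0. A fit to the 8 grass libraries alone, added after seeing the data, called 36 transcripts higher on switchgrass and 23 lower, of which 56 changed at least 2-fold and 16 at least 4-fold.

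Corn stover, with 2 libraries, gave 1 call against switchgrass (0.00969% of those tested, all downward), and 627 transcripts passed an unadjusted p under 0.05. The transcript, Locus8447v1rpkm1.73, stood at 1.74, 1.34 and 1.72 CPM on switchgrass and at 11.3 and 11.1 CPM on corn stover. The groups were far apart, and the switchgrass values were near the glucose values of 0.681, 2.11 and 1.33 CPM. The log2 difference was -2.80 ± 0.43 (edgeR adjusted p = 0.0202). This transcript was not called when any 1 of the switchgrass or corn stover libraries was left out, with edgeR adjusted p values from 0.0642 to 0.493, nor without maltose replicate 3, where it fell just short of the threshold. It was called with maltose replicate 3 and Avicel replicate 1 both left out (edgeR adjusted p = 0.00511). Without switchgrass replicate 3, 1 other transcript was called lower, Locus4951v2rpkm1.21, named after its call was seen. Only the 5 libraries of the 2 groups in the fit gave 290 calls, 175 higher and 115 lower. A fit to the 8 grass libraries called 105 transcripts higher on switchgrass than on corn stover and 57 lower.

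**Figure D5:**
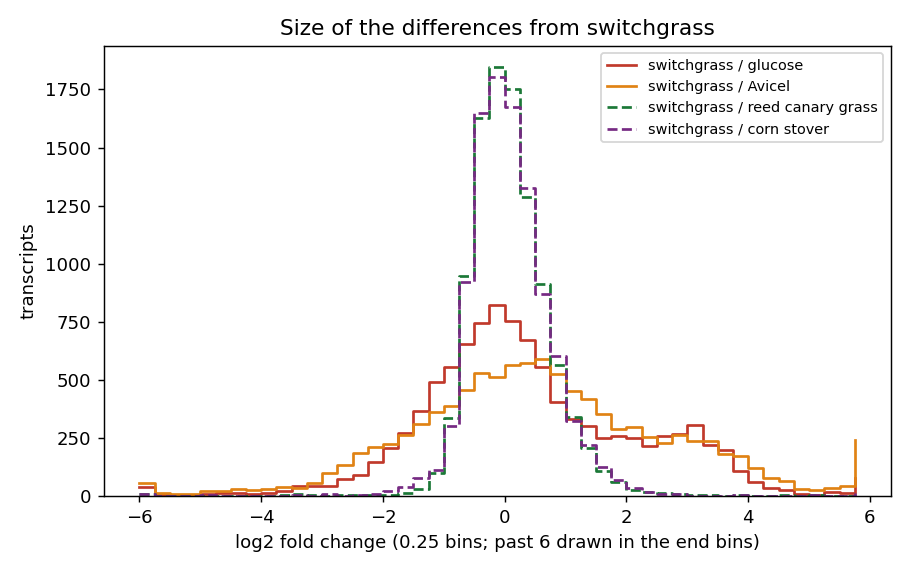
Number of tested transcripts (vertical axis) by log2 fold change of switchgrass over glucose, Avicel, reed canary grass or corn stover (horizontal axis, bins of 0.25, with values past 6 in the end bins). The reed canary grass and corn stover curves are narrow around 0, and the glucose curve has a second rise on the positive side, where 1061 transcripts were called at least 8-fold higher.

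Whole grass was also set against purified cellulose. Switchgrass was higher than Avicel in 3520 transcripts (34.1% of those tested) and lower in 1957 (19.0%) by edgeR's quasi-likelihood test, 53.1% in all. The split was 6541 and 247 by library size alone and 5268 and 1204 by the size factors of DESeq2. Locus274v1rpkm630.89, described above, had the largest gain in level here too, at 2.09 ± 0.55 on the log2 scale (edgeR adjusted p = 0.00351).

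By the same limits of 10 CPM and no overlap, the largest fold upward belonged to Locus9461v1rpkm1.29, which stood at 12.5, 6.50 and 17.7 CPM on switchgrass and at 0.165, 0 and 0 CPM on Avicel. It was almost silent on cellulose, and the log2 fold change of 8.25 ± 1.38 (edgeR adjusted p = 0.000128) depends on the fit, since 2 Avicel libraries held no count. The same transcript was higher on switchgrass than on glucose by 4.46 ± 0.93 (edgeR adjusted p = 0.000935).

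The largest loss in level against Avicel belonged to Locus19v1rpkm7983.86, at 2758, 2724 and 3507 CPM on switchgrass and 92469, 21051 and 19580 CPM on Avicel. All Avicel values were higher, with replicate 1 far above the others after TMM scaling. In TPM that replicate was not far above, at 8993 against 7898 and 7220, and switchgrass stood at 2705 ± 159. The log2 difference was -3.89 ± 0.52 (edgeR adjusted p = 1.16e-05), and -2.76 without that replicate. The largest fold downward, Locus16v2rpkm1029.98, rests on that replicate alone: its Avicel values were 2819, 0.402 and 0.674 CPM, and the edgeR adjusted p rose from 0.00230 to 0.159 without it.

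Where at least 2 versions of a locus were called, they mostly went the same way. Versions of a locus share reads, and 892 loci have more than 1 version. Of the 500 loci with at least 2 tested versions, 62 had at least 2 versions higher on switchgrass and none lower, and 49 had at least 2 lower and none higher. In 6 loci versions were called in opposite directions. In 130 loci 1 version was called and in 253 none, and such loci could not show opposite calls. With counts summed per locus, 2772 loci were called higher and 1593 lower.

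The called groups differed in how often a transcript had a value that was not whole, a sign of reads shared with another transcript. At least 1 switchgrass or glucose library had such a value in 14.5% of the transcripts called higher. The share was 27.2% of those called lower and 21.6% of those not called. The groups also differed in level, and the part of level in these shares was not tested. Effective length, read from the ratio of counts to TPM and set relative to the median transcript, had a median of 0.98 in the higher group, 0.81 in the lower group and 0.94 in those not called. Its part in the result was not tested.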

How the data were processed

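RNA sequencing of 20 A. robustus libraries was analysed. The authors deposited expected counts and TPM per transcript; RSEM made them, per the submitters' processing notes, which give no version. Aligner and reference were not given in the sources used here. Of the deposited expected count values, 10.4% were not whole (tolerance 1e-09), and all were rounded. The deposited TPM values were used for shares and levels.

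Transcripts were kept by filterByExpr (minimum count 10, minimum total 15), scaled by TMM and tested with the quasi-likelihood test of edgeR 4.0.16 (R 4.3.3) in 1 model of all 20 libraries with 1 mean per substrate, so that small groups share 1 estimate of spread. The biological coefficient of variation was 0.39. P-values were adjusted by Benjamini-Hochberg over all 10316 transcripts and called under 0.05. Standard errors are those implied by the F statistic. Shares were compared by exact permutation (Python 3.11.15, SciPy 1.17.1). The edgeR test was tried on simulated counts with a small share of planted changes, balanced in direction. That trial does not bear on how scaling moves the balance of higher and lower calls.

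Members and lists were chosen with earlier results of these data known. For each comparison, the named transcripts are, in each direction, the largest fold change and the largest difference in mean CPM among calls without overlap that reach 10 CPM in the higher group. The gene lists drawn up for enzymes, transporters and other classes could not be matched to the identifiers and were not tested.

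Replicate libraries differed by more than counting noise (chi-square per degree of freedom 17.1 to 32.1 on switchgrass, 52.4 to 141 on glucose). The labels do not say whether they came from separate cultures, so the p-values reflect only how far these libraries vary, which could be technical variation. DESeq2 1.42.0, other scalings and filters, other sets of libraries, a replicate block and libraries left out were tried as alternatives.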

Additional observations from a re-analysis of the deposited data

Results flagged for a closer look

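The difference of switchgrass from glucose and the difference of corn stover from glucose were compared transcript by transcript, and 1 transcript passed that test. Locus8447v1rpkm1.73 was -2.80 on the log2 scale on switchgrass relative to corn stover (SE 0.43, edgeR adjusted p = 0.0202), with both corn stover libraries above all 3 switchgrass libraries. Its mean was 3.28 CPM on reed canary grass. This transcript was not called without maltose replicate 3 alone or without any 1 of the 5 compared libraries, and it was called with maltose replicate 3 and Avicel replicate 1 both left out (edgeR adjusted p = 0.00511).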

How the results depend on the processing

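For switchgrass against glucose, DESeq2 gave 4225 transcripts higher and 952 lower. Lower calls numbered 851 with DESeq2 size factors, 298 with library size alone and 2388 without maltose replicate 3 and Avicel replicate 1, a setting chosen after seeing the data. Leaving out 1 library gave 3390 to 4819 calls, 2206 to 2946 higher and 1094 to 1873 lower. The filters, the 2-fold threshold, the fit to the 2 groups alone and the sums per locus kept each count within 1.5 times. The replicate numbers did not pair the samples (correlations of same-numbered deviations 0.17, -0.08 and -0.07), and with the replicate block there were 4147 calls, 2735 higher and 1412 lower. Calls against reed canary grass numbered 11 by DESeq2, 349 with only the 2 groups in the fit, 59 with the 8 grass libraries and 0 to 1 with a library left out. Against corn stover there were 18 by DESeq2, 0 with DESeq2 size factors, 0 with library size alone, 290 with only the 2 groups, 162 with the 8 grass libraries and 0 to 1 with a library left out. The fit to the 8 grass libraries was chosen after seeing the data. Leaving out a library gave 4530 to 5968 calls against Avicel and 3175 to 4561 between reed canary grass and maltose. The difference in the share of the 100 most abundant transcripts ran from -12.7 to -10.8 points, and it was -7.64 for the 10 most abundant. None of the 4 transcripts named for switchgrass against glucose changed direction. Against corn stover the 18 calls by DESeq2 were 13 higher and 5 lower, where edgeR made 1 call, lower. The sign of the median of an abundance class can turn with the scaling, which moved the median of all transcripts by 0.59 or 1.04. The cause of these shifts was not tested. Calls for transcripts under 1 CPM rest on few counts per library.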
